A study of Mus musculus with 8 samples.

Results

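The cytosolic ribosome of mammals is built from a large 60S and a small 40S subunit, whose proteins are encoded by genes named Rpl and Rps. Cytosolic ribosomal protein genes were taken from the array annotation as every symbol of Rpl or Rps followed by a digit, together with Rplp0, Rplp1, Rplp2 and Rpsa. Pseudogene symbols and the 6 Rps6k kinase symbols, which name enzymes and not parts of the ribosome, were left out. This gave 84 probes for 66 genes, out of 25697 probes for 16593 genes on the array, with 40 genes of the large subunit and 26 symbols of the small subunit. The label holds for these symbols with a few exceptions: Rps19bp1 encodes a protein that binds Rps19 and is not a ribosomal protein, Rps23rg1 is a retroposed gene, and Rpl7l1, Rpl22l1, Rpl3l, Rpl39l, Rpl36al and Rps27l are paralogs of core ribosomal proteins.

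Livers of 18-day-old Cic-L-/- mice were set against livers of wildtype mice of the same age, with 4 samples in each group, all of strain C57BL, and total RNA of each sample was hybridised to its own Illumina bead array. The Cic gene encodes capicua, a repressor of transcription with an HMG box, whose longer protein form is CIC-L. The labels do not say how the allele was made, whether it acts in all cells, or whether the numbered samples are separate animals, so each p-value speaks only of variation among these samples, some of which may be technical. Per array, 38.7% to 43.5% of probes exceeded background, and the median signal of the control rows was 138.5 to 141.9 on Cic-L-/- arrays and 114.2 to 136.3 on wildtype arrays. Of 9 hepatocyte markers on the array, 6 were above background on all 8 arrays, while Fgb and Tat were above it on none. In bulk liver, fewer cells of a type and less RNA per cell cannot be told apart.

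Most ribosomal proteins are needed in equal numbers, since each ribosome holds a single copy of them, and their mRNAs are abundant in growing tissue. Most of these mRNAs begin with a terminal oligopyrimidine (TOP) tract, a C followed by a run of C and T in the gene, through which mTOR signalling and LARP1 set how well they are translated. Transcription of the genes is known to respond to growth regulators such as MYC.

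RefSeq promoter entries (assembly GRCm38.p6, 250 bases before the annotated start to the first 50 bases after it) were matched by symbol for 57 of the 66 genes, in 68 entries. A run of at least 6 pyrimidines covered the annotated start in 18 of these 68 entries (26.5%), against 7.25% of all 32851 promoters in the table. The windows below run from 15 bases before the start to 15 bases from it on, 5′ to 3′ on the strand of the gene, and are shown because the TOP tract is the feature these mRNAs are known for. Capitals mark the whole pyrimidine run. A run can begin before the annotated start, and the base at the start can be T, so a marked run is not shown to be a TOP tract. The first 6 are the genes with a run among the tested genes that the naming rule picked, and the last 2, Rpl7a and Rpl35, were added for their long runs.
Rps9 (chr7:3704026-3704055, plus strand): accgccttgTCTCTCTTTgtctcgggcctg
Rps10 (chr17:27635230-27635259, minus strand): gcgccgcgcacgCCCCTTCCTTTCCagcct
Rps15a (chr7:118116133-118116162, minus strand): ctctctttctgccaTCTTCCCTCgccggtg
Rps24 (chr14:24490663-24490692, plus strand): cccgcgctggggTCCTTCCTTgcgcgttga
Rps27 (chr3:90213634-90213663, minus strand): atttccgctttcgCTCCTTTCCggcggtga
Rps6 (chr4:86857353-86857382, minus strand): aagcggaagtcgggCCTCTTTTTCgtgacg
Rpl7a (chr2:26910792-26910821, plus strand): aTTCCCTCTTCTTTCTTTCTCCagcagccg
Rpl35 (chr2:39005117-39005146, minus strand): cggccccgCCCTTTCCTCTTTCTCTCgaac
A gene without such a run at its annotated start, such as Rps19, may still start elsewhere, since the annotated position is not a measured start in liver.

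CIC is known to bind the octamers TGAATGAA, TCAATGAA, TGAATGGA and TCAATGGA. On either strand, 0 of the 68 promoter entries of ribosomal protein genes held one of them, against 3.84% of all promoters of the same length. The core CCGGAAGT, bound by ETS factors, the family to which the known CIC targets Etv1, Etv4 and Etv5 belong, stood in 9 of the 68 entries (13.2%), against 3.89% of all promoters. The core was counted on both strands too. Windows around the core upstream of the start are given with the core, or its reverse complement, in capitals, for a gene among the larger positive differences, for a qPCR reference gene and for the S6 kinase substrate Rps6.
Rpl41 (chr10:128549201-128549240, minus strand): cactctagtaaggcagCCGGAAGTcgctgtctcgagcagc
Rpl19 (chr11:98026654-98026693, plus strand): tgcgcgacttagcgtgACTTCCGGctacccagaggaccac
Rps6 (chr4:86857435-86857474, minus strand): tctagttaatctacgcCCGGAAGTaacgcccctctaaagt
All 8 tested genes with the core had a positive difference between Cic-L-/- and wildtype liver, with values of 0.03 to 0.37 and a median of 0.21 on the log2 scale. Of these, Rps6 (0.03 ± 0.21 SE) turned negative when some single arrays were dropped, and Rps27l differed by only 0.04 ± 0.13. A second Rpl31 probe gave -0.17. A link between the core and the differences was not tested. The 42 tested genes with a promoter entry and no such core had a median of 0.09, and 28 of them were positive. The 15 tested genes with a pyrimidine run at the start had a median of 0.08, against 0.13 for the 35 without one. Matches of this kind are descriptions of letters, not binding sites.

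In Cic-L-/- liver no ribosomal protein mRNA passed the test. Of the 66 genes, 58 could be tested, 35 of the large subunit and 23 with a small-subunit symbol, and 0 of the 58 differed from wildtype at an adjusted p under 0.05 (limma, Benjamini-Hochberg over all 8255 features), while 7.39% of all features did, 4.49% higher and 2.9% lower in Cic-L-/- liver. At an unadjusted p under 0.05 there were 8 of 58 (13.8%), 5 higher and 3 lower, against 22.5% of all features. The 4 values of the groups did not overlap for 6 of the 58 (10.3%), against 15.1% of all features. Without background correction, or with a variance trend in limma, 3 members passed, and they were Rps19 and Rpl27, higher in Cic-L-/- liver, and Rps9, lower. At the levels of the interquartile range of the members, log2 9.33 to 12.28, 0 of 28 members were called, against 134 of 1488 other features (9.01%).

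**Figure D1:**
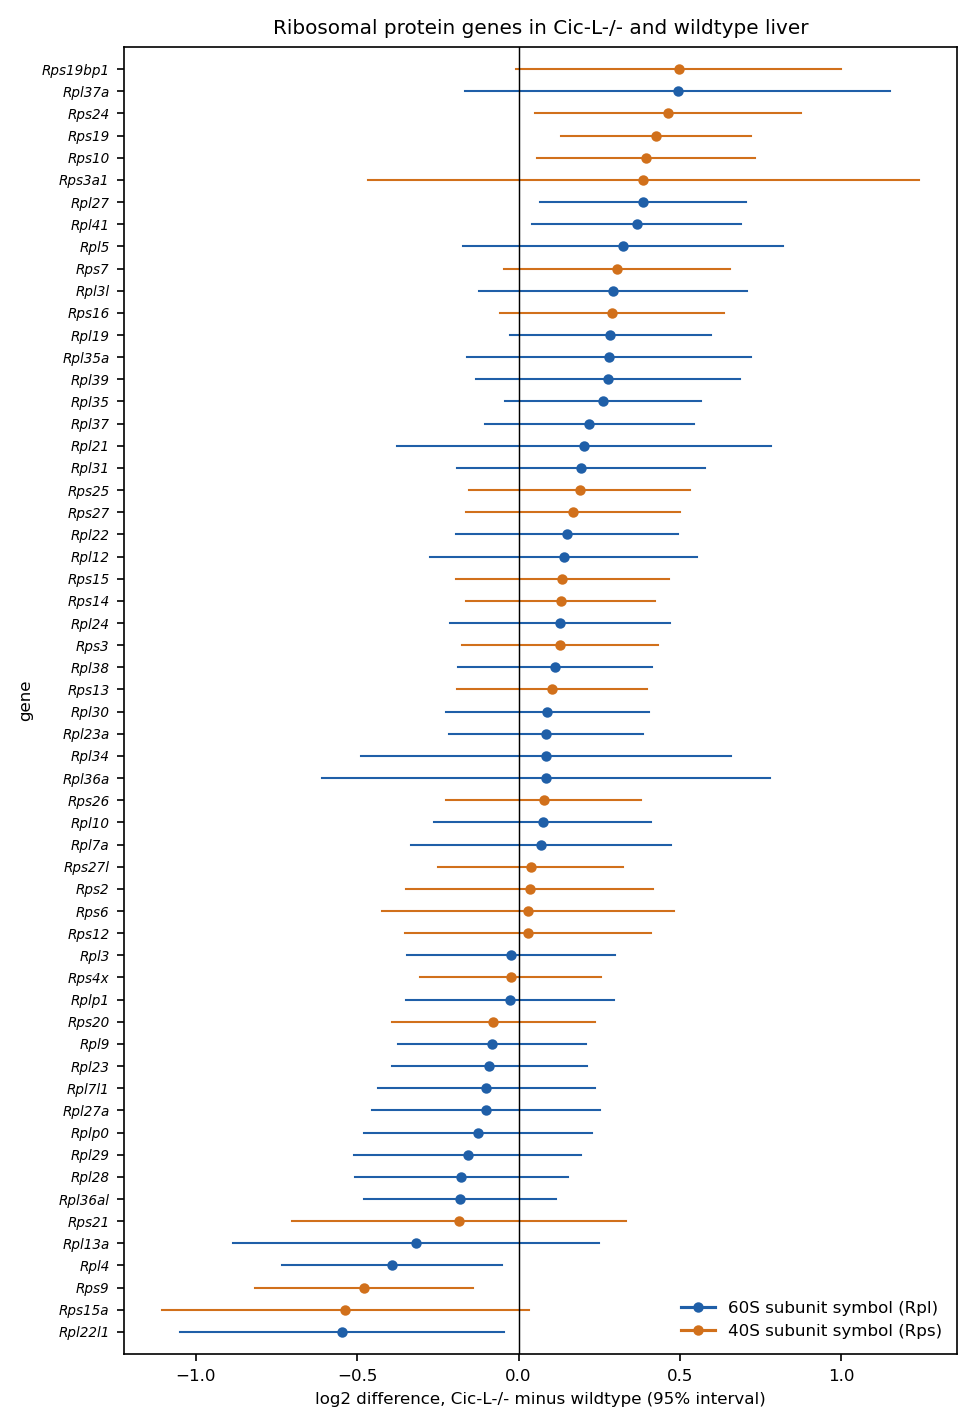
Log2 difference, Cic-L-/- minus wildtype, of each of the 58 tested ribosomal protein genes (points) with its 95% interval from limma (lines), ordered by the difference and coloured by large-subunit (Rpl) or small-subunit (Rps) symbol. Points run from -0.55 for Rpl22l1 to 0.50 for Rps19bp1, 40 of the 58 lie right of 0, and 8 intervals leave out 0.

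The intervals say how large a difference the arrays could have missed. The 95% interval of the log2 difference had a median half-width of 0.34, from 0.28 to 0.85 over the members. In 54 of 58 genes the whole interval lay within a 2-fold change either way, and in 34 within 1.5-fold. For the other members a 1.5-fold difference lay inside the interval on at least 1 side, a precision that the number of arrays limits.

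The remaining 8 genes had no probe above background on at least 4 arrays and were not tested. Rpl6, Rpl14, Rpl17, Rps23, Rplp2, Rpsa and Rpl39l were above background on 0 of 8 arrays, and Rps23rg1 on 1. A probe below background does not show that the mRNA was absent. Rpl27a, Rplp0 and Rpl37 each had a probe above background on 0 arrays beside another above it on all 8. Among the 58 tested genes, 54 were above background on all 8 arrays. The exceptions were Rps15a, on 3 Cic-L-/- and 4 wildtype arrays, Rpl21, on 3 of each group, Rps19bp1, on 4 Cic-L-/- and 2 wildtype arrays, and Rpl3l, on 4 Cic-L-/- arrays and 1 wildtype array. Levels of different probes are not compared. Many ribosomal protein genes have processed pseudogenes, whose transcripts these probes cannot separate.

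Read from the brightest probe of each gene, the differences of the family lay slightly above 0. Of the 58 members, 40 (69.0%) had a positive log2 difference and the median was 0.10, with quartiles of -0.06 and 0.27, beside 50.4% and a median of 0.00 over all features. The share depended on the probes and arrays used. With every kept probe counted, 41 of 67 (61.2%) were positive. With single arrays dropped it ran from 60.3% (without wildtype replicate 2) to 72.4% (without wildtype replicate 3). The large subunit had 22 positive differences of 35 and a median of 0.09, and the small-subunit symbols had 18 of 23 and a median of 0.13. These values describe the members, and no test was made of the family as a whole. The median absolute difference was 0.16 over members and 0.22 over all features, and the median within-group SD was 0.18 over members and 0.27 over all features. At the levels of the interquartile range of the members these gaps were nearly absent. There the median absolute difference was 0.18 over 28 members and 0.19 over 1488 other features, and the median SD was 0.19 over both. When arrays were centred on their medians in place of quantile normalisation, the median of all features moved to 0.17 and that of the members to 0.23, with 50 of 58 positive.

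**Figure D2:**
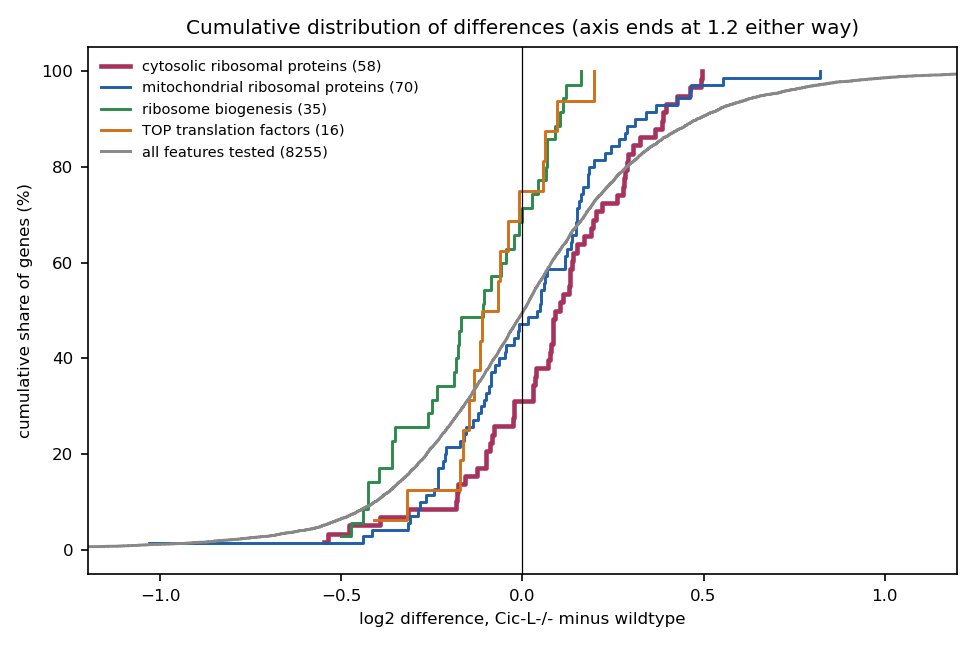
Cumulative share of genes (percent) against the log2 difference, Cic-L-/- minus wildtype, for the 58 cytosolic ribosomal protein genes, 70 mitochondrial ribosomal protein genes, 35 ribosome biogenesis genes, 16 TOP translation factors and all 8255 features. The cytosolic ribosomal protein curve has a median of 0.10, with 40 of 58 genes above 0, and the ribosome biogenesis curve has a median of -0.11.

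Array by array, the mean log2 signal of the large-subunit genes was 10.52, 10.47, 10.43 and 10.35 in Cic-L-/- replicates 1 to 4, and 10.33, 10.30, 10.46 and 10.41 in wildtype replicates 1 to 4. For the small-subunit symbols it was 10.87, 10.94, 10.88 and 10.84 in Cic-L-/- liver, against 10.83, 10.68, 10.85 and 10.74 in wildtype liver. The groups overlapped for both subunits, since wildtype replicate 3 lay above at least 1 Cic-L-/- array each time. Ribosomal protein probes carried 3.43% ± 0.05 of the background-corrected signal in Cic-L-/- liver, against 3.32% ± 0.10 in wildtype liver (SD, n = 4). These shares overlapped too, with 3.37% to 3.48% on Cic-L-/- arrays and 3.26% to 3.47% on wildtype arrays. On each array 7 or 8 of the 100 brightest probes were ribosomal protein probes. The brightest of them read 18963 to 23048 on Cic-L-/- arrays and 16958 to 22464 on wildtype arrays, below the brightest probe of any gene on each array (51545 to 66664).

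**Figure D3:**
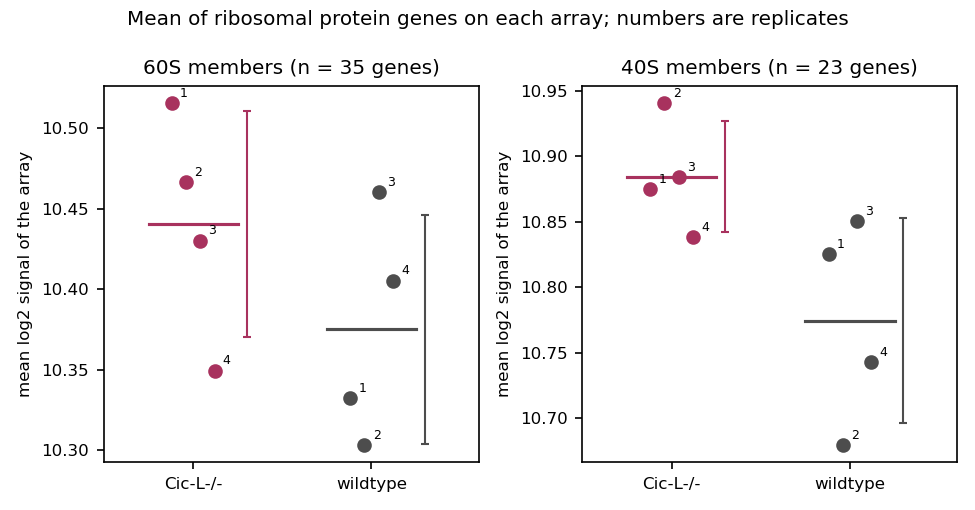
Mean log2 signal per array over the 35 large-subunit (left) and 23 small-subunit (right) genes tested, with each array as a point numbered by replicate, the group mean as a line and the SD as a bar (n = 4 per group). Points of the Cic-L-/- and wildtype groups overlap in both panels, and wildtype replicates 1 and 2 are low in the left panel.

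Rps19, the small-subunit protein most often mutated in Diamond-Blackfan anaemia, had the smallest adjusted p of the family. Its deposited signal was 5036, 3890, 3386 and 3375 in Cic-L-/- replicates 1 to 4 and 2742, 2575, 2722 and 2448 in wildtype replicates 1 to 4. After background correction and normalisation these became log2 values of 11.98, 11.82, 11.75 and 11.67 in Cic-L-/- liver, against 11.35, 11.44, 11.37 and 11.36 in wildtype liver. All 4 Cic-L-/- values lay above all 4 wildtype values. The log2 difference was 0.43 ± 0.13 (SE; 95% interval 0.13 to 0.72; limma adjusted p = 0.0820), which missed the threshold. It passed without background correction (0.41, adjusted p = 0.0111) and with a variance trend (adjusted p = 0.0204), and adjusted p over its alternatives ran from 0.0111 to 0.189. In assembly GRCm38.p6, Rps19 lies 13 protein-coding genes from Cic on chromosome 7. The part of this position in the difference was not tested.

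Rps9, a small-subunit protein near the mRNA entry channel, had the next smallest adjusted p and the opposite sign. Its log2 values were 10.22, 9.69, 9.75 and 9.91 in Cic-L-/- liver, against 10.41, 10.26, 10.45 and 10.36 in wildtype liver. The groups did not overlap, and Cic-L-/- replicate 1 lay just below the lowest wildtype value. The difference was -0.48 ± 0.15 (SE; 95% interval -0.82 to -0.14; limma adjusted p = 0.0898), and without background correction it was -0.43 (adjusted p = 0.0296). A second kept Rps9 probe gave -0.13 ± 0.18 (SE, limma adjusted p = 0.731 over all kept probes), with means of 9.87 ± 0.34 in Cic-L-/- liver, against 10.00 ± 0.13 in wildtype liver (SD, n = 4), so the size rests on 1 probe of this gene.

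Rpl27 and Rpl41, both of the large subunit, and Rpl35, which sits beside the polypeptide exit tunnel, were the other members with all Cic-L-/- values above all wildtype values. Rpl27 had log2 values of 12.58, 12.61, 12.43 and 12.27 in Cic-L-/- liver, against 12.24, 12.04, 12.16 and 11.92 in wildtype liver. Rpl41, which encodes the shortest ribosomal protein, had 14.04, 13.94, 13.93 and 14.15 in Cic-L-/- liver, against 13.45, 13.80, 13.51 and 13.84 in wildtype liver. Rpl35 had 11.90, 12.005, 11.70 and 11.76 in Cic-L-/- liver, against 11.57, 11.69, 11.47 and 11.59 in wildtype liver. None passed by limma: Rpl27 differed by 0.39 ± 0.15 (SE, adjusted p = 0.142), Rpl41 by 0.37 ± 0.15 (adjusted p = 0.171) and Rpl35 by 0.26 ± 0.14 (adjusted p = 0.295). The lowest Cic-L-/- value of each lay just above its highest wildtype value.

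Rpl4, whose protein lines the exit tunnel, was the only member besides Rps9 with all Cic-L-/- values below all wildtype values. It had log2 values of 8.65, 8.51, 8.83 and 8.86 in Cic-L-/- liver, against 8.99, 8.89, 9.28 and 9.27 in wildtype liver. The difference was -0.39 ± 0.16 (SE, limma adjusted p = 0.161). Over the 8 tested genes of the exit tunnel, 7 were positive, all but Rpl4, and the median was 0.17. Over all tested members 40 of 58 (69.0%) were positive. A second probe of Rpl31, which is among the 7, gave -0.17.

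**Figure D4:**
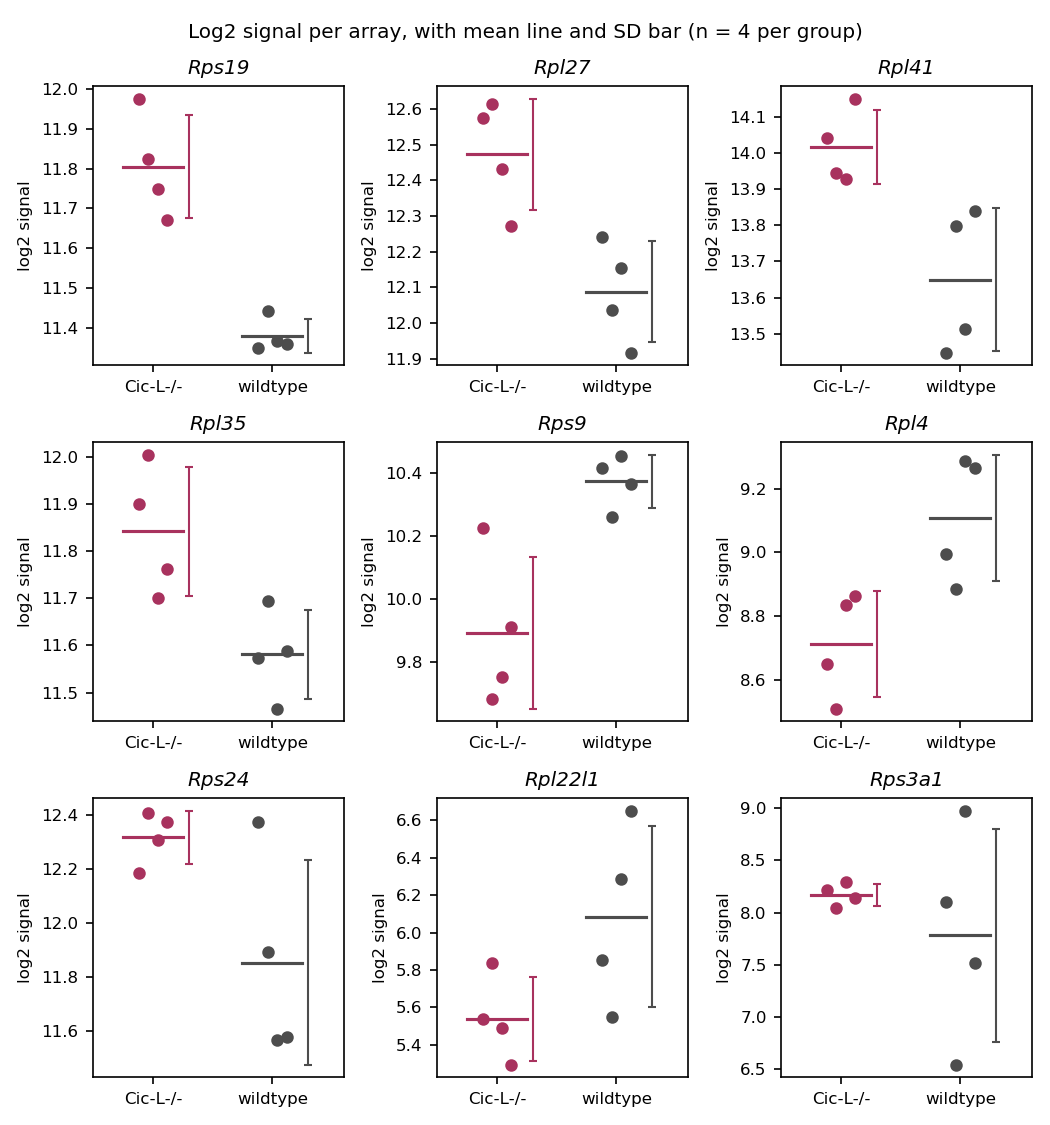
Log2 signal of 9 ribosomal protein genes on each array (points), with group means (lines) and SD (bars, n = 4 per group), Cic-L-/- on the left and wildtype on the right of each panel, each panel with its own axis range. Groups do not overlap for Rps19, Rpl27, Rpl41, Rpl35, Rps9 and Rpl4, and wildtype values of Rps3a1 run from 6.54 to 8.98.

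The largest positive difference was that of Rps19bp1 (0.50 ± 0.23 SE, limma adjusted p = 0.228), a dim probe above background on 4 Cic-L-/- arrays and 2 wildtype arrays, and without background correction it was 0.15. The next were those of Rpl37a (0.49 ± 0.30, adjusted p = 0.370), Rps24 (0.46 ± 0.19, adjusted p = 0.171), Rps19 and Rps10 (0.40 ± 0.15, adjusted p = 0.153). Rps24 had log2 values of 12.18, 12.41, 12.30 and 12.37 in Cic-L-/- liver, against 12.37, 11.89, 11.57 and 11.58 in wildtype liver. Wildtype replicate 1 lay among the Cic-L-/- values, and the other 3 wildtype arrays lay below them. Without Cic-L-/- or wildtype arrays in turn, and under the other alternatives, the Rps24 difference ran from 0.08 to 0.64. A second Rps24 probe, dim on all arrays, gave -0.30 ± 0.23 (SE, limma adjusted p = 0.505 over all kept probes). Rpl37a had 10.51, 10.26, 9.36 and 9.85 in Cic-L-/- liver, against 8.70, 10.03, 9.59 and 9.69 in wildtype liver, with groups that overlapped widely.

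The 5 lowest differences were those of Rpl22l1 (-0.55 ± 0.23 SE, limma adjusted p = 0.184), Rps15a (-0.54 ± 0.26, adjusted p = 0.248), Rps9, Rpl4 and Rpl13a (-0.32 ± 0.26, adjusted p = 0.514). Rps15a had log2 values of 4.65, 5.81, 5.96 and 5.46 in Cic-L-/- liver, against 5.88, 6.03, 5.77 and 6.34 in wildtype liver, near background throughout. For such dim probes the size depends on the background correction: without it the Rpl22l1 difference was -0.19. Rps3a1 had the widest spread in a group, with 8.21, 8.04, 8.29 and 8.14 in Cic-L-/- liver, against 8.10, 6.54, 8.98 and 7.52 in wildtype liver, where the spread lay. Its interval, -0.47 to 1.24, was the widest of the family.

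Among genes mutated in Diamond-Blackfan anaemia, an inherited failure of red cell production, 12 were tested and 0 passed, against 7.39% of all features. Of them 11 had a positive difference, with a median of 0.29, and Rps15a was the exception. Each gene was read from its brightest probe, and second probes of Rps24 and Rpl31 gave -0.30 and -0.17. The share with a positive difference was 91.7%, against 69.0% of all tested ribosomal protein genes and 50.4% of all features. At an unadjusted p under 0.05 there were 4 (Rps19, Rpl27, Rps10 and Rps24), or 33.3%, against 13.8% of ribosomal protein genes and 22.5% of all features. These shares describe a list of 12 genes, and no test was made of it. Erythroid markers gave no call in either direction among 4 tested, and their summed signal was 19045 to 32818 on Cic-L-/- arrays and 25107 to 27631 on wildtype arrays.

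Paralogs replace a core protein in some tissues. Rpl22l1 is known to be repressed by its parent protein Rpl22 in mouse. Rpl22l1 had log2 values of 5.53, 5.84, 5.49 and 5.29 in Cic-L-/- liver, against 5.85, 5.55, 6.29 and 6.65 in wildtype liver. Rpl22 had 10.52, 10.42, 10.90 and 10.80 in Cic-L-/- liver, against 10.41, 10.48, 10.71 and 10.45 in wildtype liver, a difference of 0.15 ± 0.16 (SE, limma adjusted p = 0.626). Both pairs of groups overlapped. Rps27 and its p53-responsive paralog Rps27l differed by 0.17 ± 0.15 (adjusted p = 0.555) and 0.04 ± 0.13 (adjusted p = 0.903). Rpl36a and Rpl36al differed by 0.08 ± 0.32 (adjusted p = 0.910) and -0.18 ± 0.14 (adjusted p = 0.475), and the sign of the first turned when single arrays were dropped. Rpl3 and its striated-muscle paralog Rpl3l differed by -0.02 ± 0.15 (adjusted p = 0.949) and 0.29 ± 0.19 (adjusted p = 0.403). Rpl39 differed by 0.28 ± 0.19 (adjusted p = 0.422) and Rpl7l1, a paralog of Rpl7 that acts in ribosome assembly, by -0.10 ± 0.15 (adjusted p = 0.753).

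The P stalk, which Rplp0, Rplp1 and Rplp2 form and which recruits elongation factors, was measured by 2 of its 3 genes. Rplp1 had log2 values of 14.06, 14.33, 14.32 and 14.19 in Cic-L-/- liver, against 14.19, 14.04, 14.46 and 14.32 in wildtype liver, with groups that overlapped. Its difference was -0.03 ± 0.15 (SE; 95% interval -0.35 to 0.30; limma adjusted p = 0.941). Rplp0, whose probe is dim, differed by -0.13 ± 0.16 (adjusted p = 0.698). Rps6, the phosphorylated target of S6 kinases, had 11.38, 11.35, 11.25 and 10.68 in Cic-L-/- liver, against 11.05, 10.98, 11.61 and 10.91 in wildtype liver. Its difference was 0.03 ± 0.21 (adjusted p = 0.954). Rpl5, which with 5S rRNA and Rpl11 binds the p53 regulator Mdm2, differed by 0.32 ± 0.23 (adjusted p = 0.438), and its Cic-L-/- values ran from 9.47 in replicate 4 to 10.52 in replicate 1.

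For 8 genes more than 1 probe was kept. The probes of 4 of them had differences of the same sign (Rpl23, Rpl29, Rpl38 and Rps9), and those of the other 4 had opposite signs (Rpl21, Rpl31, Rps3 and Rps24). In each of the latter 4 the brightest probe, which stood for the gene, was the positive one. The gap between probes of a gene was at most 0.76, for Rps24. The 3 Rpl23 probes gave -0.24, -0.18 and -0.09.

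Ribosomal protein genes serve as reference genes for qPCR, and 4 such genes were tested with 0 calls: Rpl13a, Rplp0, Rpl19 (0.28 ± 0.14 SE, limma adjusted p = 0.265) and Rpl30 (0.09 ± 0.14, adjusted p = 0.761). Of 8 other common reference genes, 1 was called (12.5%, against 7.39% of all features), and it rose. Cytoskeletal actin, Actb, had log2 values of 12.36, 12.29, 12.14 and 12.60 in Cic-L-/- liver, against 11.78, 11.52, 11.85 and 11.67 in wildtype liver, with no overlap. It rose 1.56-fold (0.64 ± 0.15, adjusted p = 0.0264), and this was lost in 8 of 17 alternatives: when replicate 1, 2 or 4 of either group was dropped, under the replicate block, and with the mean of its kept probes (0.46, adjusted p = 0.0843, the highest of the 17). Tbp differed by -0.23 ± 0.14 (adjusted p = 0.383) and Hprt by 0.19 ± 0.14 (adjusted p = 0.483). Some markers of other cells rose in Cic-L-/- liver: 3 of 8 tested macrophage genes (Adgre1, C1qc and Marco), 3 of 9 neutrophil genes (S100a8, S100a9 and Ltf), 1 of 5 lymphocyte genes (Cd79a) and 5 of 11 cycling-cell genes (Birc5, Tk1, Mcm6, Plk1 and Aurka), with 0 lower in these lists. The shares called were 37.5%, 33.3%, 20% and 45.5% in that order, against 4.49% of all features called higher. These markers are named because they passed. Their part in these values was not tested. Summed marker signal was 4176 to 8538 on Cic-L-/- arrays and 3176 to 3502 on wildtype arrays for 9 macrophage genes, of which Cd5l was never above background. For 9 neutrophil genes it was 4025 to 7494 on Cic-L-/- arrays and 2875 to 3346 on wildtype arrays. Of 10 lymphocyte genes only 3 were above background on all 8 arrays. The summed signal of the 10 was 499 to 734 on Cic-L-/- arrays and 417 to 471 on wildtype arrays. For 13 cycling-cell genes, of which Bub1 and Ccnb2 were never above background, it was 3438 to 4283 on Cic-L-/- arrays and 2322 to 2568 on wildtype arrays. Hepatocyte markers overlapped, with 137910 to 149954 on Cic-L-/- arrays and 136325 to 145191 on wildtype arrays. Endothelial markers overlapped too, with 4745 to 5829 on Cic-L-/- arrays and 4435 to 4961 on wildtype arrays. So did stellate and fibroblast markers, with 5944 to 6716 on Cic-L-/- arrays and 5483 to 6228 on wildtype arrays. Of 7 hepatocyte, 8 endothelial and 7 stellate and fibroblast genes tested, 0 passed.

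Around the ribosome, calls among other translation genes were set beside the 7.39% of all features called. Fau, which encodes a small-subunit protein outside the symbol rule, had 11.60, 11.49, 11.46 and 11.60 in Cic-L-/- liver, against 11.40, 11.41, 11.31 and 11.22 in wildtype liver (0.20 ± 0.13 SE, limma adjusted p = 0.417). Of 70 tested mitochondrial ribosomal protein genes, whose products form a separate ribosome, 0 passed, 37 were positive and the median was 0.04. The nearest to the threshold were Mrpl24 (-1.03 ± 0.29, adjusted p = 0.0540), Mrpl50 (0.47 ± 0.15, adjusted p = 0.0907) and Mrpl52 (0.82 ± 0.27, adjusted p = 0.0914). Mrpl24 had log2 values of 6.67, 7.26, 7.17 and 7.29 in Cic-L-/- liver, against 8.52, 7.94, 7.28 and 8.77 in wildtype liver, and wildtype replicate 3 lay inside the Cic-L-/- range. Without that array Mrpl24 passed (-1.31, adjusted p = 0.0103).

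Of 16 tested TOP translation factors 0 passed, against 7.39% of all features, and 4 were positive, with a median of -0.09. Their lowest adjusted p was that of the histone chaperone Nap1l1 (-0.41 ± 0.18 SE, limma adjusted p = 0.206), followed by elongation factor Eef2 (-0.32 ± 0.16, adjusted p = 0.262). Of 35 tested ribosome biogenesis genes 0 passed and 10 were positive, with a median of -0.11. The nucleolar helicase Ddx21 differed by -0.50 ± 0.18 (adjusted p = 0.129), the rRNA methyltransferase Fbl by -0.40 ± 0.14 (adjusted p = 0.130) and the 60S assembly factor Pes1 by -0.47 ± 0.18 (adjusted p = 0.150). Both medians lay below 0 and that of the ribosomal protein genes above it, a difference that was not tested. With median centring the TOP factors had a median of 0.04 and the biogenesis genes one of 0.06, both below the 0.17 by which all features then moved.

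Among 17 tested translation control genes, 1 was called (5.88%, against 7.39% of all features), and it fell. Deptor, an inhibitor of mTOR, had log2 values of 8.04, 8.11, 8.64 and 8.06 in Cic-L-/- liver, against 9.05, 9.23, 9.46 and 8.80 in wildtype liver, with no overlap. It was 1.90-fold lower in Cic-L-/- liver (-0.92 ± 0.19 SE, limma adjusted p = 0.0144), and passed under all 17 alternatives tried, with adjusted p of 0.00454 to 0.0493. Eif4ebp2, a repressor of cap-dependent translation, differed by 0.51 ± 0.22 (adjusted p = 0.203) and Rictor, a subunit of mTOR complex 2, by -0.30 ± 0.14 (adjusted p = 0.251).

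Tested members lay on 16 chromosomes, and 9 were on chromosome 7, which carries Cic. Of these 9 genes 4 were positive, with a median of -0.10, and of the 49 on other chromosomes 36 were positive, with a median of 0.11. Rps19 was the nearest of the 9 to Cic and Rps16, 80 genes from it, the next. Rps16 differed by 0.29 ± 0.16 (SE, limma adjusted p = 0.309).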

How the data were processed

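The deposited intensity table holds bead signals not yet normalised between arrays, as their differing quantiles show. The deposited log2 table equals log2 of that signal after quantile normalisation over all rows, to within 5.0e-05, and the series matrix repeats it. The sources used here name no software or genome build.

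The 1124 rows without a probe ID were taken as negative controls, a reading of the values. Background was corrected with normexp on these rows (limma 3.58.1, R 4.3.3, offset 16), followed by log2 and quantile normalisation. A probe was above background where under 5% of control rows were as bright, which was written as a detection p under 0.05, and 10300 probes that met this on at least 4 arrays were kept. Genes were named from the platform annotation, and the gene IDs of all 84 member probes were found in RefSeq with 0 symbols changed. The brightest kept probe stood for a gene, giving 8255 features.

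Groups were compared with limma (lmFit then eBayes, two-sided tests without covariates) and Benjamini-Hochberg adjustment over all features, called at an adjusted p under 0.05. The fit was run on simulated data only as a check of the code, and power at the small differences of the members was not read from it. Fold changes are on the offset log2 scale, which understates dim probes. Members and lists were chosen with earlier results of these data known. Named genes were called members, the 5 largest differences each way, paralogs with their parents, a fixed set of well-known members and the 3 smallest adjusted p of each other list. Another 15 were picked once values were known: Rpl7a, Rpl19, Rpl21, Rpl23, Rpl27, Rpl29, Rpl30, Rpl31, Rpl35, Rpl38, Rpl41, Rps3, Rps3a1, Rps16 and Mrpl27. Alternatives to each step and to the choice of arrays were tried. Depth does not apply to arrays, and the number of arrays limits the precision.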

Additional observations from a re-analysis of the deposited data

Results flagged for a closer look

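In groups of 4 arrays, an array was flagged where its gap to the nearest other value was above Dixon's 95% critical share of the range of its group. Over 73 genes and 146 groups, 7 were flagged (4.79%), where chance gives about 1 in 20, and no array had more than 2 flags.

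Among ribosomal protein genes, Rpl21 read 5.15 in Cic-L-/- replicate 4, below 5.57 to 5.66 on the other Cic-L-/- arrays. Rpl36al read 12.47 in Cic-L-/- replicate 2, below 12.53 to 12.54 on the others. Rpl23 read 14.06 in wildtype replicate 4, below 14.21 on the other 3 wildtype arrays, where it held the same rank. Rpl29 read 9.39 in wildtype replicate 2, above 9.11 to 9.14.

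Among the other genes, Ddx21 read 8.48 in Cic-L-/- replicate 4, above 7.98 to 8.05, and 8.20 in wildtype replicate 1, below 8.75 to 8.79. Deptor read 8.64 in Cic-L-/- replicate 3, above 8.04 to 8.11 on the other Cic-L-/- arrays and below all wildtype values.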

How the results depend on the processing

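Under 17 alternatives the count of ribosomal protein genes called stayed at 0 except without background correction and with a variance trend, where it was 3 each time (Rps19, Rpl27 and Rps9). It was 0 to 0 when single arrays were dropped. The members' median was 0.23 with median centring, where all features moved by 0.17 and 83.6% of calls were higher, against 60.8%, and 0.07 to 0.12 with single arrays dropped. Calls over all features ran from 326 (without Cic-L-/- replicate 1) to 628 with single arrays dropped, and were 349 without Cic-L-/- replicate 2, 388, 398 and 396 without wildtype replicates 1, 2 and 4, against 610 with all arrays.

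The other translation lists gave 2 calls, against 6 without background correction (3 mitochondrial and 1 biogenesis gene, Fbl, among them), 8 with median centring (6 mitochondrial, Mrpl27 among them), 4 with a variance trend (2 mitochondrial), and 1 with the mean of kept probes, where reference genes had 0. Restricting to probes above background on all 8 arrays gave 1 mitochondrial call. Dropping single arrays gave 1 to 4 calls in all, 0 to 2 mitochondrial and 0 to 1 among reference genes.

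Replicate numbers are shared by the groups, but same-numbered samples did not deviate together (correlations -0.03 to 0.05), and only number 4 was each other's best match. The replicate block gave 468 calls over all features, 0 ribosomal protein genes, 1 in the other lists and 0 reference genes.

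Signs turned with median centring for Rpl3 (0.075), Rpl7l1 (0.087), Rplp0 (0.11), Rplp1 (0.054), Rpl23 (0.069), Rpl29 (0.014) and Tbp (0.000655), with cyclic loess for Rplp1 (0.00477) and Rpl23 (0.018), and with the mean of kept probes for Rpl21 (-0.032). With single arrays dropped, ranges crossed 0 for Rpl3 (-0.086 to 0.049), Rpl36a (-0.093 to 0.38), Rplp1 (-0.096 to 0.044), Rps6 (-0.046 to 0.19), Rpl21 (-0.062 to 0.40), Rpl7a (-0.052 to 0.22) and Rps3a1 (-0.027 to 0.78). The cause was not tested for any of these.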
